A study of Mus musculus with 4 samples.

Results

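Cells of the mouse thoracic aorta that carried Chad transcripts together with other cartilage-associated transcripts were examined in 4 single-cell RNA libraries. A cell was a member when it had at least 1 unique molecular identifier (UMI, a tag that lets each captured transcript be counted once) of Chad, fewer than 10 UMIs of Lyz2, C1qa and C1qb together, and at least 1 UMI each of at least 2 of Comp, 1500015O10Rik, Cytl1, Meox1 and S100b. The rule found 84 members among 38316 cells (0.219%). They were compared with 5050 other cells that had at least 10 UMIs of Dcn and Lum together and at most 1 UMI of Myh11. Dcn and Lum encode decorin and lumican, matrix proteoglycans of fibroblasts, and Myh11 encodes the myosin heavy chain of smooth muscle. The working name of the members was chondrocyte-like cells, but the rule gathered several kinds of cell, so they are called Chad Comp cells here. The name is a label only, since the rule did not require Comp and 55 of the 84 had a Comp UMI.

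Cartilage matrix is built on a network of type II, IX and XI collagen filled with the proteoglycan aggrecan, and the transcription factor SOX9 with its partners SOX5 and SOX6 drives these genes. Chad encodes chondroadherin, a leucine-rich repeat protein that binds collagen in cartilage, and Comp encodes cartilage oligomeric matrix protein, a member of the thrombospondin family found in cartilage, tendon and vessel walls. Cartilage-like gene expression is known in arteries and heart valves, where it often accompanies calcification.

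Each group was 1 library from 3 pooled mice. Wild-type (WT) mice received saline on a normal diet or angiotensin II (AngII), a peptide hormone that raises blood pressure, for 7 days with a high fat diet for 5 weeks. Mice with a whole-body knockout of Sting (labelled Sting-KO, written KO here) received the same 2 treatments, so infusion and diet cannot be told apart in any comparison. The 3′ counts of the targeted gene, Tmem173, were 105 UMIs in WT saline, 102 in KO saline, 637 in WT AngII and 578 in KO AngII. The KO libraries did not show a loss of this transcript, and the sources used here do not name the deleted part of the gene, so KO means the library labelled Sting-KO. The libraries held 60064038 to 94698727 UMIs, and 92 to 148 cell barcodes were shared between any 2 of them. Of the members, 2 had a barcode that also occurred in another library and 0 shared one with a member elsewhere.

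Chad Comp cells were rare in every library. There were 12 among 9261 cells in WT saline, a share of 0.130% (95% Clopper-Pearson interval 0.0670 to 0.226). KO saline had 7 among 12053 (0.0581%, 0.0234 to 0.120). WT AngII had 34 among 8495 (0.400%, 0.277 to 0.559) and KO AngII had 31 among 8507 (0.364%, 0.248 to 0.517). The intervals of both AngII libraries lay above those of both saline libraries, and the intervals of WT and KO overlapped within each treatment. As a share of members plus comparison cells the values were 1.17% (0.603 to 2.03), 1.37% (0.554 to 2.81), 1.99% (1.38 to 2.78) and 1.64% (1.12 to 2.32) in WT saline, KO saline, WT AngII and KO AngII, and all 4 intervals overlapped. All such intervals cover counting error only, since each group has 1 library.

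Depth moved with the number of members. Median UMIs per member were 7504 in WT saline, 7918 in KO saline, 13556 in WT AngII and 9961 in KO AngII, and over all cells the medians were 5888, 6071, 9938 and 9294. When every cell was thinned to 3000 UMIs before the rule was applied, 5, 5, 13 and 6 members were left in the same order. The WT AngII count was still the highest, and the KO AngII count then lay next to both saline counts.

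The Chad signal itself was held by few cells. Over all cells there were 211 Chad UMIs in WT saline, 196 in KO saline, 217 in WT AngII and 157 in KO AngII, and the members carried 84.4%, 79.1%, 94.5% and 85.4% of them. Chad (chromosome 11, 94565047 to 94569127, plus strand, GRCm38) overlaps Acsf2 on the opposite strand, and the sources used here do not say whether the counting used strand. Of the 84 members, 40 had exactly 1 Chad UMI, 29 had 2 to 9 and 15 had 10 or more. The 15 cells with 10 or more were spread over all libraries, with 4 in WT saline, 3 in KO saline, 5 in WT AngII and 3 in KO AngII. The highest count in a cell was 102, 91, 65 and 32 in these libraries. In WT saline the leading cell alone gave 57.3% of the members' Chad UMIs and in KO saline 58.7%.

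**Figure D1:**
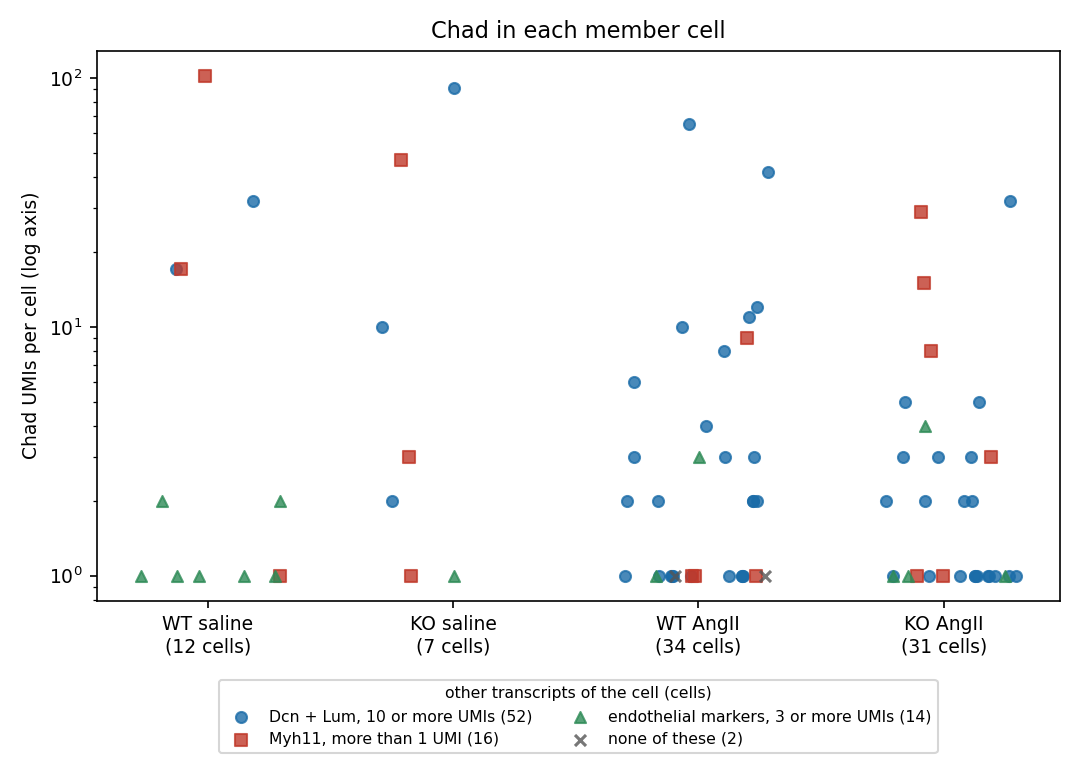
Chad UMIs in each of the 84 Chad Comp cells (log axis) by library, with the symbol showing which other transcripts the cell carried (endothelial markers first, then Myh11, then Dcn and Lum). All 4 libraries hold cells with 10 or more Chad UMIs, and 7 of the 12 WT saline members carried at least 3 endothelial UMIs.

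Cells close to the limits of the rule are given as a description. Just inside were 20 members with 1 Chad UMI and exactly 2 of the 5 further transcripts. Just outside were 25 cells with Chad and 1 of the 5, and 41 cells with Chad and none of the 5. A further 670 cells had 3 or more of the 5 transcripts but no Chad UMI, and 635 of these had at least 10 UMIs of Dcn and Lum. Of the excluded Chad cells, 1 had 10 Chad UMIs and the others had fewer. The limit on Lyz2, C1qa and C1qb excluded 0 cells that otherwise met the rule.

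The other genes of the rule were uneven. Levels are given in CPM, counts per 1000000 UMIs of the cell set, and are a description because they chose the members. Comp was at 507 CPM in WT saline, 2438 in KO saline, 689 in WT AngII and 593 in KO AngII members, against 27.6, 115, 215 and 113 CPM in comparison cells. In KO saline 92.1% of the members' Comp UMIs came from 1 cell. Comp had UMIs in 4 of 12 WT saline, 3 of 7 KO saline, 28 of 34 WT AngII and 20 of 31 KO AngII members. Among comparison cells the shares with Comp were 5.50%, 9.74%, 44.8% and 35.1% in the same order. 1500015O10Rik, the mouse counterpart of ECRG4, a precursor of secreted peptides, was at 939, 4667, 1770 and 909 CPM in members and at 26.4, 54.8, 230 and 123 CPM in comparison cells in the same order.

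Cytl1, which encodes a small secreted protein made in cartilage, divided the members by treatment. It was at 8516 CPM in WT saline and 11389 CPM in KO saline members, against 512 CPM in WT AngII and 515 CPM in KO AngII members. Comparison cells had it at 656, 1027, 80.3 and 32.4 CPM in this order, so the saline libraries were higher in both cell sets. All 19 saline members had at least 3 Cytl1 UMIs, compared with 6 of 34 WT AngII and 8 of 31 KO AngII members. Meox1, which encodes a homeobox transcription factor, marked few of the cells. It had UMIs in 12 of 84 members and stood at 21.1, 17.4, 41.6 and 5.59 CPM in WT saline, KO saline, WT AngII and KO AngII members, against 26.4, 40.5, 28.6 and 24.6 CPM in comparison cells. S100b, a calcium-binding protein of glia and chondrocytes, was at 137, 104, 155 and 69.9 CPM in members and at 22.7, 47.9, 66.1 and 48.9 CPM in comparison cells.

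The members fell into several kinds by transcripts that the rule did not ask for. At least 10 UMIs of Dcn and Lum were present in 69 members, made up of 30 of 34 in WT AngII, 27 of 31 in KO AngII, 6 of 12 in WT saline and 6 of 7 in KO saline. More than 1 Myh11 UMI was present in 19. Of the 84, 55 met both conditions set for the comparison cells. At least 3 UMIs over 9 endothelial markers (among them Pecam1, Cdh5 and Vwf) were found in 14 members, 7 of them in WT saline, and 11 of these 14 had fewer than 10 UMIs of Dcn and Lum. Each of the 14 had between 1 and 4 Chad UMIs, and 11 had at least 3 Cytl1 UMIs. Cthrc1, a secreted collagen-associated protein of activated fibroblasts, had at least 5 UMIs in 27 of 34 WT AngII and 20 of 31 KO AngII members, against 0 of 12 in WT saline and 1 of 7 in KO saline. No doublet caller was run, and the part of droplets with 2 cells was not tested.

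**Figure D2:**
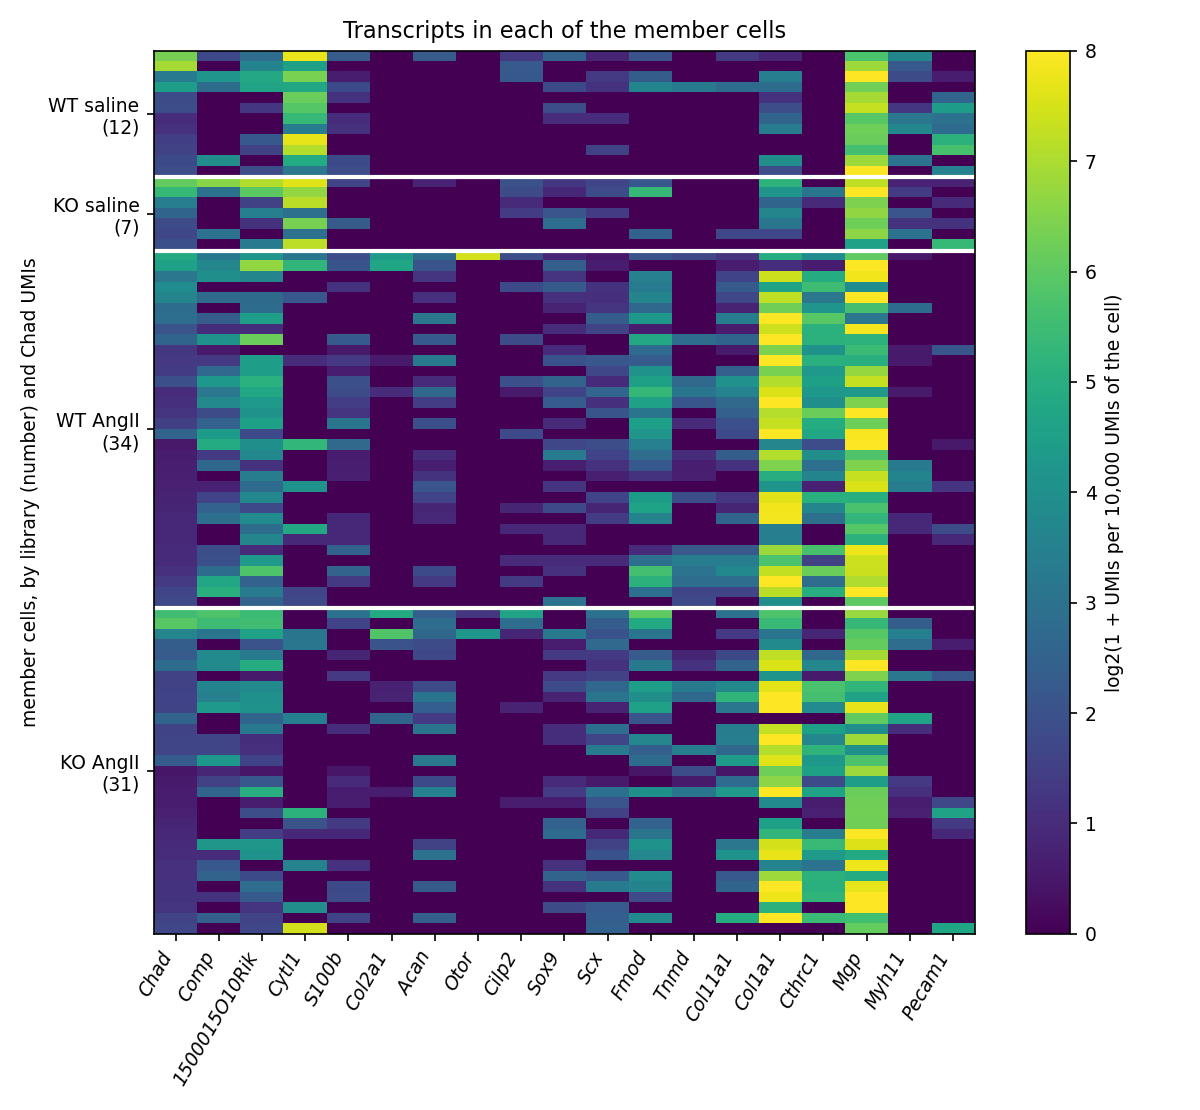
Each row is 1 of the 84 Chad Comp cells, grouped by library and ordered by Chad UMIs, and each column is a gene; colour gives log2(1 + UMIs per 10000 UMIs of the cell). Cytl1 fills the saline cells, Col1a1 and Cthrc1 fill most AngII cells, and Col2a1 and Otor appear in few AngII cells.

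Cells grouped by Chad count differed in what they carried. In the 8 AngII members with 10 or more Chad UMIs, Col2a1 (type II collagen, the main collagen of cartilage) had 186 of the 201 UMIs found in all members, and 4 of these 8 cells had it. The 32 AngII members with 1 Chad UMI held 1 Col2a1 UMI in all, but had Col1a1 (type I collagen) at 10366 CPM and Cthrc1 at 1440 CPM. The 7 saline members with 10 or more Chad UMIs had 0 Col2a1 UMIs (upper Poisson limit 47.0 CPM) and 10 Cthrc1 UMIs, with Cytl1 at 12646 CPM. Cilp2, which encodes cartilage intermediate layer protein 2, was at 229 CPM in these 7 saline cells and at 298 CPM in the 8 AngII cells. The AngII members with 1 Chad UMI held 5 Cilp2 UMIs (95% interval 4.22 to 30.3 CPM) and the saline members with 1 Chad UMI held 0. Ucma, a small secreted protein of cartilage, was at 166 CPM in the 7 saline cells and at 51.3 CPM in the 8 AngII cells.

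To ask which genes differed between Chad Comp cells and the comparison cells, UMI sums per library were tested with edgeR's quasi-likelihood test with library as a block, and p-values were adjusted by Benjamini-Hochberg over all genes. Only WT AngII and KO AngII had the 20 members set as the minimum, so the test rests on 65 members in 4 sums with 1 residual degree of freedom. Of 11970 genes, 269 (2.25%) were higher and 322 (2.69%) lower in members at an adjusted p under 0.05, 4.94% in either direction, and 1596 had an unadjusted p under 0.05. Of the 269, 6 were genes of the rule, which are not counted as findings. The counts depended on how the spread is estimated. With edgeR's newer dispersion method (legacy = FALSE) 2 genes were higher and 0 lower over the 2 libraries, with 1264 at an unadjusted p under 0.05, and DESeq2 called 127 higher and 86 lower. With all 4 libraries in the fit, 207 (2.38%) were higher and 239 (2.74%) lower of 8712 genes, and with the newer method 123 and 151. Of 516 called genes that could be tested over 4 libraries, 367 were called the same way there. A 4-library adjusted p comes from the fit over all 4 libraries.

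The genes that define chondrocytes were higher in the members. Of 16 listed, 12 could be tested, 10 were higher and 0 lower, with a median log2 fold change of 3.85 beside -0.08 over all genes tested. The low-count filter of the test takes a gene by its level in either cell set. Col2a1, Col9a1, Col9a3, Col11a2, Hapln1 and Ucma were too low in the comparison cells to pass it there. These genes entered only because members carried them, so the tally and the median are partly set by the filter. Sox5 and Sox6, the partners of SOX9, were not called (log2 fold change 0.71 and 2.54, adjusted p = 0.880 and 0.247). With the members held to the comparison cells' own conditions on Dcn, Lum and Myh11, 8 of 10 were higher, and over all 4 libraries 4 of 4. With the newer dispersion method over 2 libraries 0 of 12 were called by edgeR, with 11 at an unadjusted p under 0.05.

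Acan, which encodes aggrecan (chromosome 7, 79053483 to 79115099, plus strand), the main proteoglycan of cartilage, lay above the comparison cells in all 4 libraries. In each saline library this rests on 1 member, with 5 UMIs in WT saline and 1 UMI in KO saline. Acan was at 52.8 CPM in WT saline, 17.4 in KO saline, 192 in WT AngII and 257 in KO AngII members, against 1.95, 0.819, 13.4 and 19.1 CPM in comparison cells. The AngII members were thus above the saline members. The log2 fold change was 3.74 (adjusted p = 4.90e-40, and 2.62e-09 over 4 libraries by edgeR). A UMI of Acan was found in 39 of 84 members (46.4%), in 5.98% of comparison cells, in 25.3% of cells gated as smooth muscle (Myh11 of at least 10 UMIs) and in 1.95% of phagocyte-gated cells, which should lack it. Median depths per library were 7504 to 13556 UMIs in members, 3606 to 11781 in comparison cells, 7462 to 10745 in smooth muscle gates and 4480 to 7454 in phagocyte gates. With cells thinned to 3000 UMIs the shares were 33.7%, 2.79%, 11.6% and 0.370%. These shares pool libraries that make up unlike parts of each cell set. By library and without thinning, Acan was found in 58.8% of WT AngII members and 50.7% of smooth muscle-gated cells. In KO AngII the shares were 54.8% and 35.2%. In WT saline they were 8.33% and 14.8%, and in KO saline 14.3% and 12.6%, so members did not lie above smooth muscle in WT saline.

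Type II collagen was found in fewer members than aggrecan. Col2a1 (chromosome 15, 97975602 to 98004695, minus strand) had 95 UMIs (208 CPM) in WT AngII members and 106 UMIs (296 CPM) in KO AngII members, against 4.34 and 0.369 CPM in comparison cells. No Col2a1 UMI was found in the 19 saline members. The log2 fold change was 7.01 (adjusted p = 9.29e-75 by edgeR), and the gene could not be tested over all 4 libraries. It came from 11 members, of which 4 were in WT AngII and 7 in KO AngII, and in WT AngII 2 cells gave 96.8% of the UMIs. The WT AngII members held 49.7% of all Col2a1 UMIs of their library and the KO AngII members 88.3%.

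Among the remaining collagens of cartilage, Col11a1 (type XI collagen) was at 73.9 CPM in WT saline, 17.4 in KO saline, 317 in WT AngII and 624 in KO AngII members, against 1.22, 0.819, 56.6 and 97.8 CPM in comparison cells (log2 fold change 2.52, adjusted p = 1.80e-26, 4-library adjusted p = 3.36e-06 by edgeR). Col11a2, Col9a1 and Col9a3 were also higher by 5.55, 3.96 and 5.28 on the log2 scale, on UMIs in 9 or 10 AngII members each. Matn3, which encodes matrilin 3, was at 61.2 CPM in WT AngII and 129 CPM in KO AngII members against 11.1 and 7.29 CPM in comparison cells, and had 0 UMIs in saline members. Sox9 was at 116, 174, 173 and 143 CPM in members of WT saline, KO saline, WT AngII and KO AngII, against 32.7, 42.2, 65.2 and 62.9 CPM in comparison cells, and its level in members was similar in all 4 (log2 fold change 1.25, adjusted p = 9.12e-06, 4-library adjusted p = 1.87e-04 by edgeR). Hapln1 and Ucma were called on UMIs in 5 and 4 AngII members, with adjusted p = 0.0248 and 0.0470 by edgeR, and each was called in 1 of the 8 alternatives that gave a value.

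Otor, which encodes otoraplin, a small secreted protein of cartilage and the inner ear, had the largest fitted change (12.20), but 1 WT AngII cell held 390 of its 414 UMIs (94.2%). In KO AngII 2 members held the other 24 UMIs, and comparison cells of that library held 0. The call without the leading cell was not tested. Spp1 (osteopontin), also on the list of mineralising genes, was at 3159 CPM in WT AngII and 229 CPM in KO AngII members, with 89.3% of its UMIs in 1 cell. Of the 11 genes listed for hypertrophic and mineralising cartilage 3 could be tested. Alpl, the alkaline phosphatase of mineralising cells, was lower, with 1 UMI in the AngII members, against 9.93 CPM in WT AngII and 29.9 CPM in KO AngII comparison cells (adjusted p = 6.07e-04 by edgeR). It was called in 8 of the 14 alternatives that gave a value. Among those without the call were DESeq2, thinned cells, the fit without the library block and the newer dispersion method over 2 libraries. Runx2, a transcription factor of bone and hypertrophic cartilage, was not called (log2 fold change 1.31, adjusted p = 0.162).

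**Figure D3:**
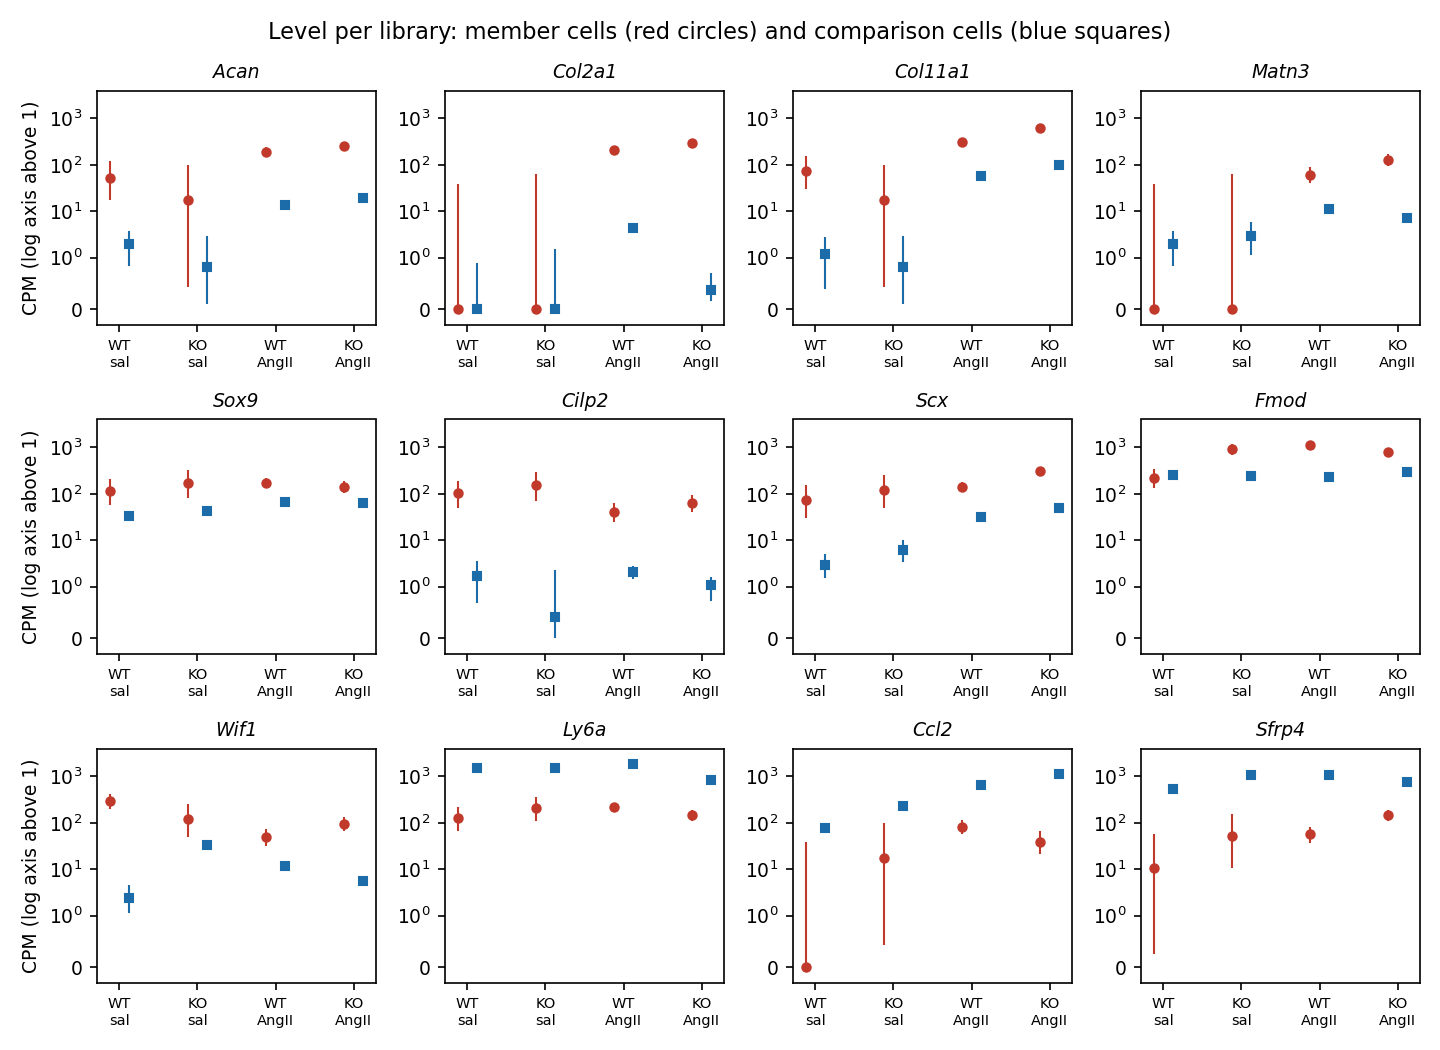
Level of 12 genes (CPM, log axis above 1) in members (red circles) and comparison cells (blue squares) of each library, with exact 95% Poisson intervals. Members lie above comparison cells for Acan in all 4 libraries, in each saline library on 1 cell. Col2a1 and Matn3 have 0 UMIs in saline members, and Ly6a, Ccl2 and Sfrp4 lie lower in members in all 4 libraries.

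Inhibitors of calcification were higher in 4 of 6 cases and lower in 0. Over 4 libraries 4 of 6 were higher and 1 lower. DESeq2 called 2 higher and 0 lower. With the rule on a random part of the UMIs and sums from the rest, 2 were higher and 0 lower. Sost, which encodes sclerostin, a secreted Wnt inhibitor best known from bone, was at 243 CPM in WT saline, 261 in KO saline, 164 in WT AngII and 313 in KO AngII members, against 64.2, 192, 34.9 and 13.3 CPM in comparison cells. The gap was smallest in KO saline. Its log2 fold change was 3.35 (adjusted p = 6.19e-32, 4-library adjusted p = 5.83e-04 by edgeR) and was 1.53 when members were held to the comparison cells' conditions. Mgp, the matrix Gla protein that keeps arteries from calcifying, was at 14858, 18495, 17853 and 10598 CPM in members and at 9272, 9958, 10732 and 7120 CPM in comparison cells (log2 fold change 0.60, adjusted p = 2.83e-05 by edgeR). Enpp1, which makes pyrophosphate, and Ank, which carries it or its precursor out of cells, were higher by 1.33 and 1.52. For Ank, 1 cell gave 60.3% of the WT AngII members' UMIs. Ank was at 160 CPM in WT AngII and 55.9 CPM in KO AngII members, against 33.9 and 36.5 CPM in comparison cells.

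Genes of tendon and ligament were mixed, with 5 of 12 higher and 2 lower. Scx, which encodes scleraxis, the transcription factor of tendon cells, was at 73.9 CPM in WT saline, 122 in KO saline, 140 in WT AngII and 308 in KO AngII members, against 2.93, 6.14, 31.8 and 50.1 CPM in comparison cells. It was thus above the comparison cells in all 4 libraries (log2 fold change 2.33, adjusted p = 3.00e-19, 4-library adjusted p = 3.43e-06 by edgeR), with UMIs in 54 of 84 members. Scx had UMIs in 28.7% of smooth muscle-gated cells over all libraries too. By library these were 53.7% in WT AngII and 45.1% in KO AngII, against 61.8% and 80.6% of members. In WT saline and KO saline they were 16.4% and 14.4%, against 41.7% and 42.9% of members. Cilp2 was at 106, 157, 41.6 and 64.3 CPM in members against 1.71, 0.409, 2.05 and 1.11 CPM in comparison cells. Its log2 fold change was 5.03 (adjusted p = 2.19e-17, 4-library adjusted p = 8.82e-08 by edgeR), and 22 of 84 members carried it. In KO AngII members 1 cell gave 73.9% of its UMIs. Tnmd (tenomodulin, a membrane protein of tendon) and Fmod (fibromodulin) were higher by 1.21 and 1.80, but Fmod was at 222 CPM in WT saline members against 261 CPM in comparison cells. Tnxb, which encodes tenascin X, was lower, at 10.6, 34.8, 8.75 and 8.39 CPM in members against 241, 187, 129 and 54.6 CPM in comparison cells (log2 fold change -3.49, adjusted p = 4.06e-13 by edgeR). Col14a1 was lower by 0.75 on the log2 scale.

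The wider matrix was partly higher. Of 9 small leucine-rich proteoglycans tested, 6 were higher (Bgn, Fmod, Ogn, Prelp, Aspn and Ecm2) and 0 lower. Prelp, which binds collagen and basement membrane, was at 823, 1445, 1061 and 735 CPM in members against 512, 379, 539 and 382 CPM in comparison cells (log2 fold change 0.91, adjusted p = 3.09e-05, 4-library adjusted p = 0.00103 by edgeR). Ogn and Aspn were not called over 4 libraries (adjusted p = 0.888 and 0.904 by edgeR). Among 18 fibrillar and associated collagens 8 were higher and 2 lower, and over 4 libraries 4 and 1. Col1a1 was higher by 0.59 in the AngII fit but stood at 507 CPM in WT saline members against 2034 CPM in comparison cells, and over 4 libraries its log2 fold change was -0.09. Col8a1, which encodes a short-chain collagen of vessel walls, was at 580, 975, 1249 and 1244 CPM in members against 47.1, 68.8, 529 and 659 CPM in comparison cells (log2 fold change 1.02, adjusted p = 3.78e-07, 4-library adjusted p = 3.31e-04 by edgeR), and Col8a2 was higher by 2.37.

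Thrombospondins and matrilins were higher in 3 of 6 cases. Thbs1, which encodes a matrix protein that activates latent TGF-beta, was at 1899 CPM in WT saline, 1393 in KO saline, 1949 in WT AngII and 1463 in KO AngII members, against 30.3, 59.8, 384 and 950 CPM in comparison cells. The members had a similar level in all libraries while the comparison cells differed between treatments (log2 fold change 1.43, adjusted p = 1.41e-12, 4-library adjusted p = 5.70e-04 by edgeR). Thbs2 and Matn4 were higher by 1.77 and 2.51. Of 18 elastic fibre genes 7 were higher and 5 lower, and over 4 libraries 4 and 5. Fbn2, a fibrillin of developing elastic fibres, was higher by 2.46 with 0 UMIs in saline members, while Fbln2 and Efemp1 (fibulins) were lower by 1.17 and 2.09 on the log2 scale.

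The remaining named genes include C1qtnf3, Clu, Smoc1 and Mest. C1qtnf3, a secreted protein with a C1q domain, was at 1179 CPM in WT AngII and 1200 CPM in KO AngII members against 246 and 88.2 CPM in comparison cells, and had 0 UMIs in saline members (log2 fold change 2.95, adjusted p = 6.27e-39 by edgeR). Clu, which encodes the secreted chaperone clusterin, was at 1076, 1393, 370 and 551 CPM in WT saline, KO saline, WT AngII and KO AngII members against 134, 275, 121 and 48.4 CPM in comparison cells (log2 fold change 2.50, adjusted p = 4.73e-24, 4-library adjusted p = 7.01e-07 by edgeR). Smoc1, a secreted modulator of BMP signalling, was at 644, 331, 114 and 159 CPM against 169, 125, 42.0 and 32.1 CPM. Clu and Smoc1 were thus above the comparison cells in all 4 libraries. Mest, an imprinted gene for a hydrolase-like protein, was higher by 3.24, with most of its UMIs in KO AngII.

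Signalling genes changed in both directions. Of 7 secreted Wnt inhibitors Wif1, Dkk3 and Frzb were higher and Sfrp4 was lower. Wif1 was at 295 CPM in WT saline, 122 in KO saline, 50.3 in WT AngII and 95.1 in KO AngII members. Comparison cells had it at 2.44, 33.2, 11.8 and 5.61 CPM in the same order. Its log2 fold change was 3.05 (adjusted p = 5.98e-15, 4-library adjusted p = 9.22e-05 by edgeR). In WT AngII members 1 cell gave 65.2% of its UMIs, and in KO AngII members 1 cell gave 50.0%. Sfrp4 was at 10.6, 52.2, 56.9 and 148 CPM in members against 538, 1057, 1093 and 747 CPM in comparison cells (log2 fold change -3.28, adjusted p = 3.97e-37, 4-library adjusted p = 1.32e-07 by edgeR). Of 20 BMP and TGF-beta genes Tgfb1, Tgfb3 and Chrdl1 were higher and Gdf10 was lower. Over 4 libraries 2 of 19 were higher and 0 lower, and Tgfb1 and Gdf10 were no longer called. Chrdl1, a secreted BMP antagonist, was higher by 1.70. In the IGF axis 4 of 9 genes were lower and 0 higher. Igfbp5, a binding protein of insulin-like growth factors, was at 401, 209, 50.3 and 69.9 CPM in members against 1405, 1900, 979 and 503 CPM in comparison cells (log2 fold change -3.64, adjusted p = 6.27e-39, 4-library adjusted p = 2.22e-07 by edgeR). Igf1, Igfbp4 and Igfbp6 were lower by 0.95, 0.71 and 1.91 on the log2 scale.

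**Figure D4:**
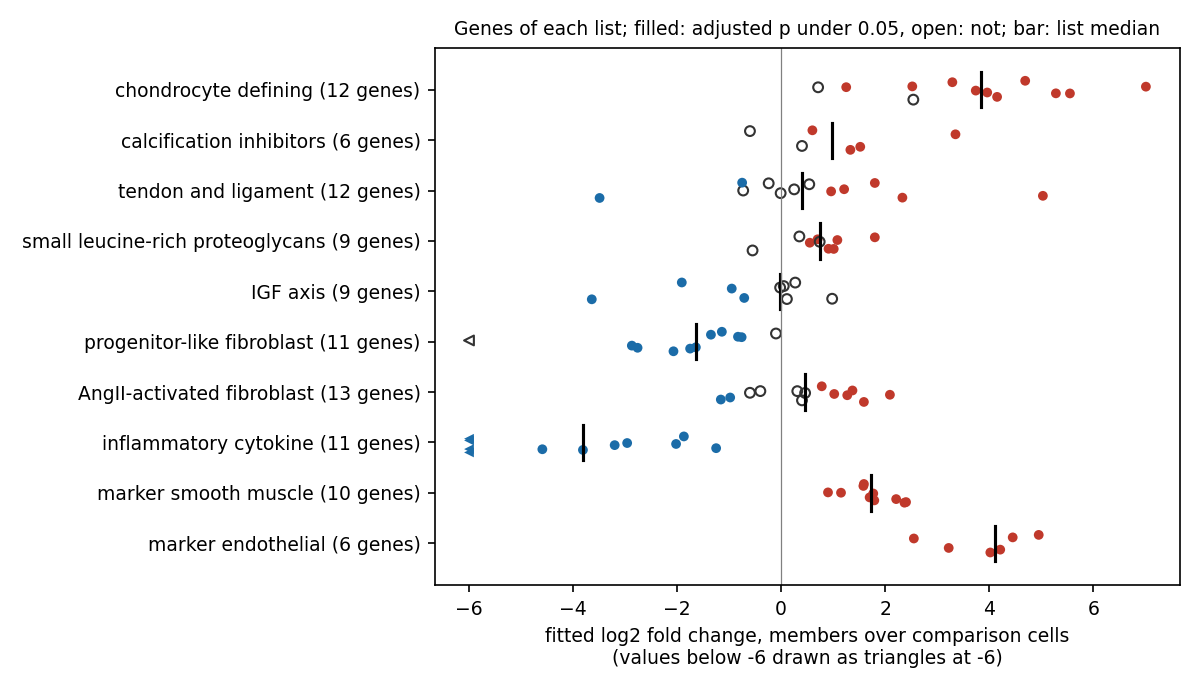
Fitted log2 fold change of members over comparison cells in the 2 AngII libraries for the genes of 10 lists, with filled points for an adjusted p under 0.05, open points for the others and bars for list medians. All 11 inflammatory cytokine genes lie below 0, and 10 of 12 chondrocyte genes are filled above 0; the triangles are genes with 0 UMIs in these members, or at most 1, whose fitted value is no bound.

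Inflammatory transcripts were lower in the members. Of 11 listed cytokine and acute-phase genes 11 were lower, with a median log2 fold change of -3.81, or -2.66 with the 3 genes at 0 UMIs set to their bound. Ccl2, the chemokine that draws monocytes, was at 0 UMIs in WT saline, 17.4 CPM in KO saline, 83.1 in WT AngII and 39.1 in KO AngII members, against 76.2, 232, 649 and 1124 CPM in comparison cells (log2 fold change -3.81, adjusted p = 4.71e-43, 4-library adjusted p = 1.32e-07 by edgeR). Mmp3, a matrix-degrading protease, was at 21.1, 0, 2.19 and 14.0 CPM in members against 429, 245, 205 and 141 CPM in comparison cells (log2 fold change -4.59, adjusted p = 6.93e-25, 4-library adjusted p = 8.82e-08 by edgeR). Ccl7 was lower by 3.20 and Il6 by 1.25 on the log2 scale. With members held to the comparison cells' conditions 10 of the 11 were lower, and over all 4 libraries 8 of 8. Markers of phagocytes moved the same way: 4 of 9 were lower (2 of 3 over 4 libraries, and 0 of 9 with DESeq2, with 4 at an unadjusted p under 0.05), and the summed level of all 9 was 0 to 41.6 CPM in members against 22.5 to 184 CPM in comparison cells, with Adgre1 and Cd14 at 0 UMIs in the members of every library. The rule limits phagocyte transcripts in members, where the limit excluded 0 cells, and sets no such limit for comparison cells. The part of phagocyte transcripts of the comparison cells in the result was not tested.

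The 10 lower genes with the largest fitted change had 0 UMIs in the AngII members, so those described are given as a bound against 3 UMIs over both AngII libraries (3.68 CPM). Cxcl5, a neutrophil chemokine, was at least 6.33-fold lower in AngII members, but WT saline members held 18 UMIs (190 CPM against 0.976 CPM in comparison cells). Spc24, a kinetochore subunit, was at least 6.30-fold lower and Ccl11 (eotaxin) at least 5.58-fold. Pf4, a chemokine of platelets and macrophages, was at least 5.24-fold lower and Tnfsf13b (the B cell factor BAFF) at least 4.42-fold. Pax1, Adamts8, Pla1a and Lcn2 were at least 3.60, 3.37, 3.36 and 3.02-fold lower. Pax1, a transcription factor of the embryonic sclerotome, was not called over 4 libraries (adjusted p = 0.121 by edgeR), with 3 UMIs in WT saline members.

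Genes of progenitor-like fibroblasts of the outer vessel wall were lower in 9 of 11 cases and higher in 0, with a median of -1.64 (-1.35 with 1 gene at its bound). Ly6a, which encodes the surface antigen Sca-1, was at 127, 209, 221 and 148 CPM in WT saline, KO saline, WT AngII and KO AngII members against 1510, 1516, 1869 and 851 CPM in comparison cells (log2 fold change -2.87, adjusted p = 3.97e-37, 4-library adjusted p = 2.62e-09 by edgeR). Pi16 was at 201, 1115, 626 and 364 CPM in members against 5026, 5317, 1872 and 1096 CPM in comparison cells. The members lay lower in all 4 libraries for both. With members held to the comparison cells' conditions 7 of the 11 listed genes were lower and 0 higher, with a median of -1.38. Ly6c1, Clec3b, Cd248 and Dpt were lower by 2.76, 2.07, 1.75 and 1.35 on the log2 scale.

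Genes of AngII-activated fibroblasts were split, with 6 of 13 higher (Postn, Spp1, Ddah1, Col8a1, Fn1 and Acta2) and 2 lower, among them Timp1. Over 4 libraries Postn and Fn1 were not called (log2 fold change 0.65 and -0.08, adjusted p = 0.482 and 0.963 by edgeR), and Acta2, a smooth muscle actin, was at -0.36 with members held to the comparison cells' conditions (adjusted p = 0.574 by edgeR). Cthrc1 was at 2074 CPM in WT AngII and 1530 CPM in KO AngII members against 1591 and 1195 CPM in comparison cells and was not called (adjusted p = 0.351 by edgeR). Interferon-stimulated genes were lower in 4 of 19 cases (Ifit1, Irf7, Rsad2 and Ifi27l2a) and higher in 0. Only 1 of 19 was lower with members held to the comparison cells' conditions, 1 of 19 with DESeq2, 0 of 19 without the library block (edgeR, with 1 at an unadjusted p under 0.05) and 2 of 14 over 4 libraries. Of 11 MHC class I genes 0 were called by edgeR, with 1 at an unadjusted p under 0.05, and of 15 genes of the unfolded protein response 1 was lower. Of 12 cell cycle genes 7 were lower and 0 higher, but 1 was lower with DESeq2, 1 without the library block, and 0 with cells thinned to 3000 UMIs (edgeR, with 4 at an unadjusted p under 0.05). Over 4 libraries edgeR called 0 of the 4 still tested, with 1 at an unadjusted p under 0.05. Mki67 had 1 UMI in the AngII members (adjusted p = 0.0612 by edgeR).

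Markers of smooth muscle, endothelial cells and pericytes were among the higher genes. All 10 smooth muscle markers were higher in members, with a median log2 fold change of 1.73. Their sum was 4714 to 9519 CPM in members and 1557 to 6363 CPM in comparison cells, which were chosen for little Myh11 while members were not. When members were held to the same limit, 0 of 10 were called by edgeR, with 0 at an unadjusted p under 0.05, and the median was -0.03. The named genes Mylk, Cnn1 and Itga8 belong beside this value: Itga8, an integrin subunit of smooth muscle, was higher by 2.18 but was at -0.32 with members held to the limit. Acan, Col11a1, Scx, Cilp2 and Wif1 were still called there. Of 5 pericyte markers tested, Rgs5 and Cspg4 were higher by 1.59 and 1.19 and 0 were lower. The sum of all 6 listed was 225 to 749 CPM in members and 225 to 344 CPM in comparison cells, with Higd1b at 0 UMIs in the members of every library. With members held to the comparison cells' conditions 0 were higher and 2 lower, and Rgs5 was at -1.06 (adjusted p = 0.0812 by edgeR).

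Endothelial markers were higher in 6 of 6 cases tested, but 5 of the 6 had over 50% of the AngII members' UMIs in 1 cell. The sum of 9 markers was 1298 CPM in WT saline, 488 in KO saline, 554 in KO AngII and 32.8 in WT AngII members, against 190, 181, 15.5 and 39.7 CPM in comparison cells, and Kdr and Cldn5 had 0 UMIs in the members of every library. Without cells of 3 or more endothelial UMIs, 0 of the 2 markers still tested were called by edgeR, with 0 at an unadjusted p under 0.05. The same markers chose the cells left out, so this outcome was fixed by the selection and is not a finding. Over all genes, 262 were then higher and 285 lower, close to the counts with these cells. Markers of Schwann cells summed to 0 to 10.6 CPM in members, and listed lymphocyte and erythroid markers had 0 UMIs in members. Among 263 higher genes outside the rule, 17 (6.46%) had over 50% of the AngII members' UMIs in 1 cell and 14 had UMIs in fewer than 5 of these members.

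KO AngII and WT AngII members were compared gene by gene with 1 library each, so no test was made and the intervals cover counting error only. Of 2037 genes with at least 30 UMIs in the library of higher level, 58 (2.85%) were higher by 2-fold or more in KO AngII and 51 (2.50%) lower by as much, each with a 95% interval that left out 0, and the median log2 ratio was 0.05. Comparison cells hold more UMIs, and there 255 of 11701 genes (2.18%) were higher and 721 (6.16%) lower by the same limits. Ratios for the saline libraries were not formed because they hold 12 and 7 members.

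Mest was the gene whose interval lay farthest above 0. It was at 856 CPM in KO AngII and 19.7 CPM in WT AngII members, a log2 ratio of 5.44 (4.50 to 6.58), with UMIs in 14 and 6 cells. In comparison cells it was at 48.9 and 7.99 CPM. The next genes were carried by single cells: all 53 Emcn UMIs came from 1 KO AngII cell, 1 cell gave 83.9% of Egfl7 UMIs, and 1 cell gave 74.1% of Ctla2a UMIs. Emcn and Egfl7 are endothelial genes and were at 0 UMIs in WT AngII members, at least 22.6 and 13.2-fold lower there. Actg2, a smooth muscle actin, was at 154 against 15.3 CPM, with 50.9% of its UMIs in 1 cell.

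Genes lower in KO AngII members also included values of single cells. Spp1 was at 229 CPM against 3159 CPM in WT AngII, where 94.4% came from 1 cell, and Otor was at 67.1 against 853 CPM, where all WT AngII UMIs came from 1 cell. Ankrd1, a stretch-responsive cofactor of muscle, had 0 UMIs in KO AngII and 38 in WT AngII, 92.1% of them in 1 cell. Ifi27l2a, an interferon-stimulated gene, was at 75.5 CPM in 9 KO AngII cells and 247 CPM in 22 WT AngII cells, a log2 ratio of -1.71 (-2.37 to -1.09), and in comparison cells the ratio was -2.52 (-2.56 to -2.47). Fst, which encodes the activin antagonist follistatin, was at 58.7 CPM in KO AngII and 199 CPM in WT AngII members, a log2 ratio of -1.76 (-2.52 to -1.06). Comparison cells went the other way for Fst, with 511 and 197 CPM and a ratio of 1.37 (1.32 to 1.43).

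Of the chondrocyte-defining genes 5 had enough UMIs for this comparison, and 1 of them, Matn3, was higher by over 2-fold in KO AngII members, with 0 lower. Matn3 was at 129 CPM in KO AngII and 61.2 CPM in WT AngII, a log2 ratio of 1.07 (0.36 to 1.80), against -0.60 (-0.90 to -0.30) in comparison cells. Col2a1 had a ratio of 0.51 (0.10 to 0.93), against -3.56 (-4.74 to -2.56) in comparison cells. These Col2a1 ratios rest on few cells, with 69.8% of the KO AngII members' UMIs in 1 cell. In WT AngII comparison cells 1 cell held 53 of 76 UMIs. Acan had a ratio of 0.42 (-0.02 to 0.86) and Sox9 of -0.28 (-0.81 to 0.25), so counting error alone could give these values. In comparison cells they were at 0.51 (0.28 to 0.75) and -0.05 (-0.16 to 0.06). Scx was at 308 CPM in KO AngII and 140 CPM in WT AngII members, a ratio of 1.14 (0.68 to 1.60), against 0.66 (0.51 to 0.80) in comparison cells. The interferon-stimulated list had 2 genes with enough UMIs in members, of which 1 was lower in KO AngII, against 19 of 20 lower in comparison cells.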

How the data were processed

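The values are UMI counts, whole numbers for 17524 genes in each cell, as the authors deposited them for 4 libraries. The submitters' processing notes list Cell Ranger and mm10; counting options and cell filters are in no source used here. Members and comparison cells were taken by the rule from raw counts, with no further filter on cells and no doublet removal. UMIs were summed per library and cell set and given as CPM with exact 95% Poisson intervals. Members were tested against comparison cells in libraries with at least 20 members, with edgeR 4.0.16 (R 4.3.3; TMM, filterByExpr, library as a block, glmQLFit with its default legacy = TRUE, glmQLFTest, Benjamini-Hochberg, 0.05); DESeq2 1.42.0 was an alternative. Library ratios have exact conditional intervals and need 30 UMIs in the higher library; shares have Clopper-Pearson intervals. All intervals, and the floor of 3 UMIs, cover counting error only. The 2 libraries in the test differ in genotype, and the block takes up their difference in level. The 1 residual degree of freedom is thus the spread of the member-to-comparison ratio between the 2 libraries, not between mice. edgeR moderates that spread with values from all genes, and the calls depended on how this was done. The members and gene lists were chosen with earlier results of these data known. A gene could pass the low-count filter through members alone, so genes near 0 in comparison cells were tested only where members carried them. Named genes were the 15 higher and 10 lower with the largest log2 fold change among those called, with the same sign in both libraries and at least 100 UMIs in the higher set, leaving out the 12 rule genes, mitochondrial and ribosomal genes and gene models; between libraries they were the 5 per direction whose interval ended farthest from 0. List genes are named as list members. Some genes that met these rules are not reported here. Positions are from GENCODE M21 (GRCm38, the same assembly as mm10).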

Additional observations from a re-analysis of the deposited data

Results flagged for a closer look

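Between KO AngII and WT AngII, 4 of the 10 genes singled out for the size of their ratio had ratios on opposite sides of 0 in Chad Comp cells and in comparison cells, with the counting intervals of both leaving out 0. Among 153 list genes with enough UMIs the same held for 30, including Sost, Postn and Thbs1. The share over all genes with enough UMIs was not formed, so neither count can be set against a general rate. For Fst the log2 ratio of KO AngII to WT AngII was -1.76 (95% interval -2.52 to -1.06) in Chad Comp cells, over 13 and 24 cells, and 1.37 (1.32 to 1.43) in comparison cells. Ctla2a was at a ratio of 4.21 (2.78 to 6.14) in Chad Comp cells, with 43 of 58 KO AngII UMIs in 1 cell, and at -0.79 (-0.97 to -0.62) in comparison cells. Emcn was at least 22.6-fold higher in KO AngII Chad Comp cells, on 1 cell, while its ratio in comparison cells was -5.45 (-7.09 to -4.20). Ankrd1 was at least 9.91-fold lower in KO AngII Chad Comp cells, against 38 UMIs in 3 WT AngII cells, and its ratio in comparison cells was 1.82 (1.44 to 2.22). Of the chondrocyte-defining genes, Matn3 was at 1.07 (0.36 to 1.80) in Chad Comp cells and -0.60 (-0.90 to -0.30) in comparison cells. Col2a1 was at 0.51 (0.10 to 0.93) and -3.56 (-4.74 to -2.56), and few cells carried it. Among Chad Comp cells, 1 KO AngII cell held 74 of 106 UMIs and 2 WT AngII cells held 96.8%. In WT AngII comparison cells 1 cell held 53 of 76 UMIs. With 1 library per group these differences were not tested, and the intervals cover counting error only.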

How the results depend on the processing

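The number of genes called moved by over 1.5 times under several settings. Genes called higher in members numbered 146 with at least 2 Chad UMIs, 147 with at least 3 of the 5 further transcripts, 168 with members held to the comparison cells' conditions, 96 with cells thinned to 3000 UMIs, 111 with the rule on a random part of the UMIs and sums from the rest, 68 without the library block (which pairs members with comparison cells of the same library), 127 with DESeq2, 2 with legacy = FALSE and 123 with legacy = FALSE over all 4 libraries. In the same settings, in that order, genes called lower numbered 197, 251, 206, 131, 192, 38, 86, 0 and 151, and with legacy = FALSE over 2 libraries edgeR gave 1264 genes an unadjusted p under 0.05. The cause of these shifts was not tested. Leaving out a library of the 2-library fit leaves no residual degree of freedom, so this could not be tested; in the 4-library fit, the genes called higher and lower numbered 152 and 165 without WT saline, 215 and 198 without KO saline, 176 and 189 without WT AngII, and 162 and 293 without KO AngII. Itga8 changed sign to -0.32 with members held to the comparison cells' conditions, and Cxcl5 to 0.81 over 4 libraries without KO saline. Among list genes described as called, the sign changed in 5 of 18 settings for Col1a1, 4 for Fn1, 2 for Aspn, and 1 each for Ogn, Postn, Acta2 and Rgs5. Members in WT saline, WT AngII and KO AngII numbered 6, 18 and 15 with at least 2 Chad UMIs, 5, 22 and 11 with 3 of the 5 transcripts, and 5, 13 and 6 when cells were thinned first. WT saline members numbered 3 under the comparison cells' conditions and 5 without endothelial cells. Genes 2-fold apart between KO AngII and WT AngII members numbered 11 higher and 10 lower with at least 100 UMIs, 14 and 10 with thinned cells, 33 higher under the comparison cells' conditions and 34 higher without endothelial cells. For Emcn, Egfl7 and Ankrd1, at 0 UMIs in 1 AngII library, no ratio was formed. The settings that leave out endothelial cells, use all 4 libraries or set legacy = FALSE were chosen after seeing the data. Few members and 1 to 3 UMIs per gene and cell limit what can be seen in the saline libraries.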
